A study of Mus musculus with 18 samples.

Results

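Imprinted genes are transcribed mainly from the copy inherited from 1 parent. Of 10 imprinted genes of the growth network (H19, Dlk1, Meg3, Peg3, Mest, Plagl1, Grb10, Cdkn1c, Ndn and Phlda2), 9 had a probe set that carried their symbol alone and were measured, among 18820 genes in all. The genes were chosen by name, with Igf2 and its receptor Igf2r left out as members and used only as a reading beside them. H19 was listed with no such probe set and was not analysed here. Each of the 9 genes had 1 probe set.

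RNA came from clone C2, a line of mouse embryonic fibroblasts (iMEFs), and was read on 18 Affymetrix arrays, with 2 arrays in each of 9 groups. In these cells tamoxifen activates a Cre recombinase that deletes Ezh2, which encodes the methyltransferase of the Polycomb complex PRC2. In a time course of 8 arrays, cells given vehicle (ethanol) were followed by cells taken on day 5, day 18 and day 32 after tamoxifen. The 10 arrays of a rescue experiment were Ezh2 null cells (Ezh2 -/-), Ezh1 pre-rescue and Ezh2 pre-rescue cells, to which a retrovirus had brought the named gene ahead of the deletion, Ezh2 post-rescue cells, to which it brought Ezh2 afterwards, and control cells labelled Ezh2 WT.

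All groups shared the same origin, 1 clone grown by limiting dilution from c-Myc-transformed Ezh2 flox/Δ cells with a ROSA26-CreERT2 allele, so they already lacked 1 working Ezh2 allele before tamoxifen and no second clone was compared. In the paper the PRC2 mark H3K27me3 was only partly depleted at day 5 after tamoxifen. No group of the time course was given tamoxifen with Ezh2 protected from deletion. An effect of the treatment and an effect of the deletion cannot be told apart there. In the paper endogenous Ezh2 was removed by tamoxifen in the rescue experiment too, so that limit applies to null against control cells as well. Values are log2 RMA intensities, on which a difference of 1 is a 2-fold change. The experiments were normalized apart (array medians of 4.98 to 5.08 in the time course and 6.16 to 6.27 in the rescue experiment), so levels were compared only within each, and each gene only with itself. The number of arrays limits the precision, and the labels do not name separate cultures, so the p-values reflect the spread of these arrays alone, part of which may be technical. Where 1 array was left out, its group kept 1 array and its spread was taken from the other groups. The p-values of such fits do not measure the spread within that group. Replicate arrays correlated over genes at r of 0.998 to 0.999 in the time course and 0.994 to 0.998 in the rescue experiment. Fibroblast markers lay above the gene median of 5.64 for 12 of 14 genes in the time course and above 6.6 for 11 of 14 in the rescue experiment, against 1 of 8 blood markers and 0 of the epithelial, endothelial, pluripotent, skeletal muscle and adipocyte markers. The Ezh2 probe set read 9.19 to 9.81 over the time course and did not fall after tamoxifen (adjusted p = 0.0068 for a rise of 0.38 ± 0.0838 at day 32), so it says nothing on the deletion, for which the labels were relied on. No detection call was used, and whether the lowest readings lay above background is not known. Group means of the markers of other cell types ran from 3.63 to 4.24 in the time course and 5.1 to 5.63 in the rescue experiment. Ndn, Mest, Meg3 and, at day 18 and day 32, Grb10 read at or below that level in the time course, as did Phlda2 in vehicle cells. Mest lay at percentiles 22.9 to 34.1 of all genes there. Phlda2 lay at 10.3 to 11.8 in control cells of the rescue experiment. Group means of Peg3 in that experiment lay between 5.4 and 5.55 outside Ezh2 post-rescue, within the range of the markers of other cell types.

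The parental mark at an imprinted gene is carried by DNA methylation laid down in the germ line, and in some domains PRC2 and its mark H3K27me3 take part in keeping 1 copy silent. Paternally expressed genes of this network include Dlk1, Peg3, Mest, Plagl1 and Ndn, and maternally expressed ones H19, Meg3, Grb10, Cdkn1c and Phlda2. Many of them act on fetal and placental growth, and several meet the insulin-like growth factor pathway. In bulk RNA a change in how many cells transcribe a gene and a change in RNA per cell cannot be told apart, and these arrays do not separate the parental copies.

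The 250 bases upstream of the annotated start are shown for the 4 members whose group means spanned at least 1 log2 unit in the time course, since the results below turn on them. The sequences are RefSeq's on GRCm38.p6, read 5′ to 3′ on the gene's strand with each CpG in capitals, and 8 of the 10 genes had a window.
Plagl1, chr10:13090582-13090831, + strand: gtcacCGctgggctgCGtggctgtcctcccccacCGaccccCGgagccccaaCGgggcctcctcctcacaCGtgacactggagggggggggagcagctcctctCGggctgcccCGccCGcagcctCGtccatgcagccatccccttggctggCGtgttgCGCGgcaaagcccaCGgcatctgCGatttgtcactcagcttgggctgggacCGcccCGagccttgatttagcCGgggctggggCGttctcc
Peg3, chr7:6730420-6730669, - strand: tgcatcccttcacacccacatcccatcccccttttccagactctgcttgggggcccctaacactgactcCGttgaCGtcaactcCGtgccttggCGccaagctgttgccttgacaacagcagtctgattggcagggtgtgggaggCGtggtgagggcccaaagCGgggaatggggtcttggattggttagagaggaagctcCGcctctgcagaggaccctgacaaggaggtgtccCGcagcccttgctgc
Phlda2, chr7:143502525-143502774, - strand: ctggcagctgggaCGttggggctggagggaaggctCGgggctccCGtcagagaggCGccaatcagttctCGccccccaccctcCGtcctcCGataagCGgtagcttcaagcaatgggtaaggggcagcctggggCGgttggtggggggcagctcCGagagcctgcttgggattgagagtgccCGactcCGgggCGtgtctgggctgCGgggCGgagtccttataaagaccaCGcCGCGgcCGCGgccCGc
Grb10, chr11:12037421-12037670, - strand: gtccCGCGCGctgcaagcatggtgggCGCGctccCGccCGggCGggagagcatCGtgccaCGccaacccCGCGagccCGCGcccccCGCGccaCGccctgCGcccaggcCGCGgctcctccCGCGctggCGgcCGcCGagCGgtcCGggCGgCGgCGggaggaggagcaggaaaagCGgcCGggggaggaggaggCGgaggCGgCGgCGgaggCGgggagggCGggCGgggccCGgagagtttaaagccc
Over 32851 windows of the same length the median held 6 CpG, with quartiles of 2 and 16. The Grb10 window held 40 CpG, more than 98.8% of all windows, while Phlda2 held 21, Plagl1 19 and Peg3 8. Among the other members Mest held 7 to 14 over 3 windows, Meg3 0 and 10 over 2 windows, Dlk1 8 and Ndn 5. A second annotated Grb10 window held 8. The motif GGGGCCCC, a palindrome known as a binding sequence of the protein that Plagl1 encodes, stood in 0.889% of all windows and once among the members, in the Peg3 window. The CpG counts and the motif match describe these letters only, since neither DNA methylation nor factor binding was measured here.

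In the time course Plagl1, Phlda2 and Peg3 rose and Grb10 fell, each by at least 0.99 log2 units by day 18, and these directions held at day 32. The other 5 members moved by less than 0.4 log2 units. A member was called at an adjusted p under 0.05 (limma, Benjamini-Hochberg over all 18820 genes). At day 5, 2 of 9 members had risen and 0 had fallen, while 11% of all genes rose and 5.72% fell. At day 18, 3 of 9 members had risen and 2 had fallen, beside 15.2% and 10.5% of all genes. At day 32 again 3 had risen and 2 had fallen, beside 18.4% and 14.2%. The split of all genes depended on the scaling: day 5 had 2077 genes higher and 1077 lower, day 18 had 2869 and 1969, and day 32 had 3468 and 2679, while with each array set to its own median these became 1479 and 2111, 2165 and 3645, and 2910 and 3685. Quantile normalization gave 1687 and 1549 at day 5. Median changes of the members were -0.04, -0.08 and -0.06 at day 5, day 18 and day 32, beside -0.005, -0.023 and -0.018 over all genes. Setting each array to its own median moved those of all genes to -0.09, -0.11 and -0.08, so falls read larger and rises smaller under it.

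**Figure D1:**
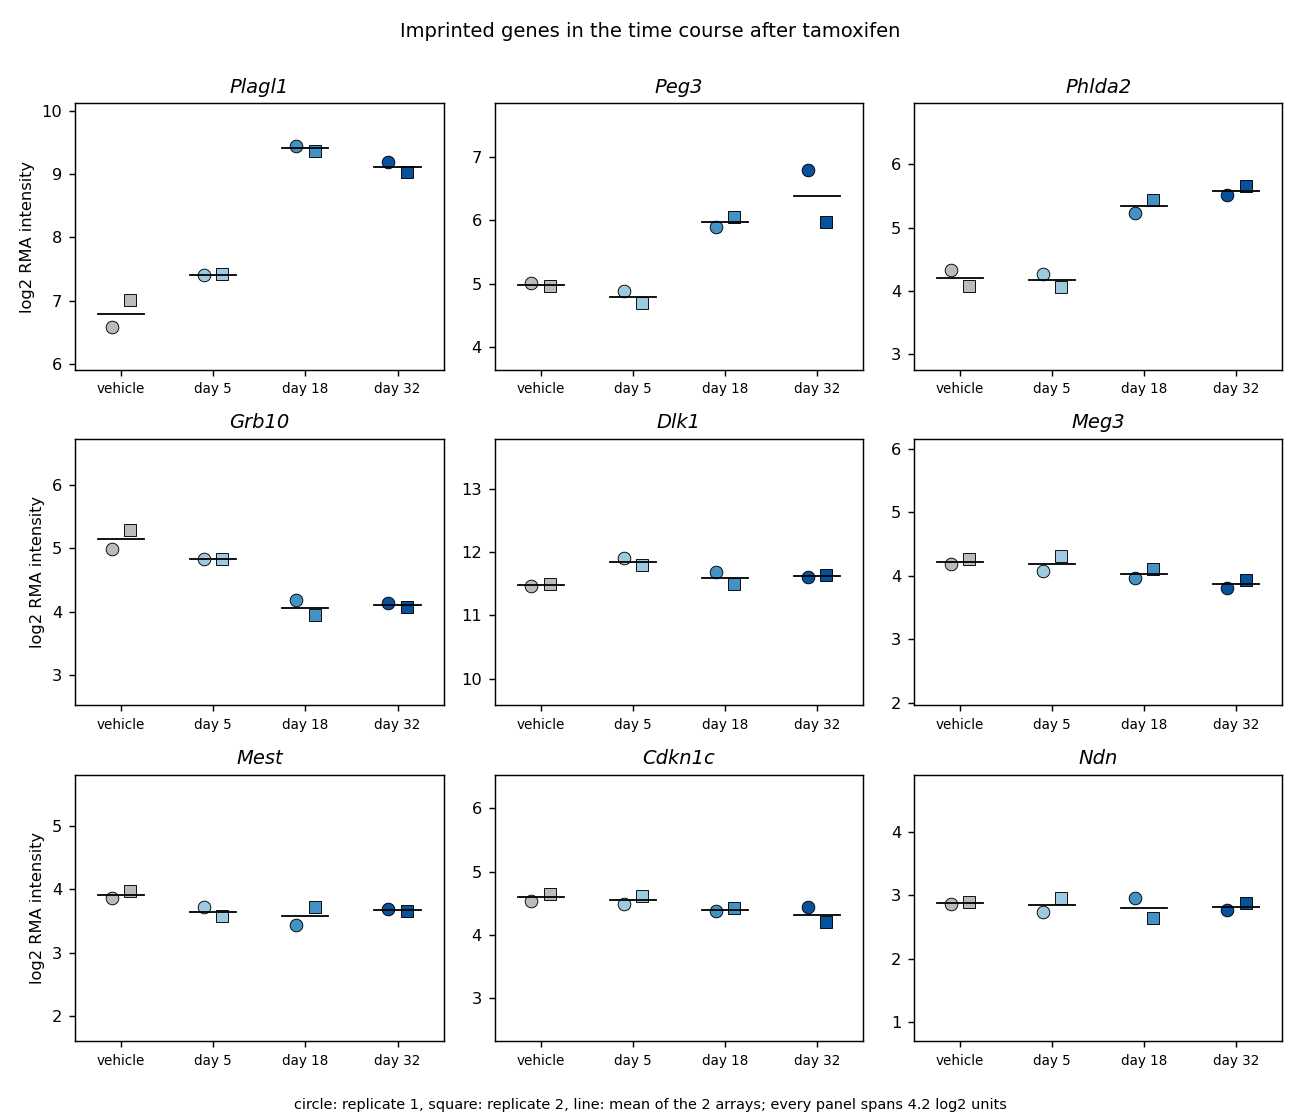
Log2 RMA intensity (vertical axis) of the 9 measured imprinted genes in vehicle cells and at day 5, day 18 and day 32 after tamoxifen (horizontal axis). Each point is 1 array and each line the mean of 2 arrays, with every panel spanning the same height. Plagl1, Peg3 and Phlda2 sat higher at day 18 and day 32 than in vehicle cells, Grb10 sat lower, and Ndn stayed between 2.64 and 2.95.

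Plagl1, a zinc-finger transcription factor known to restrain growth and to act on other imprinted genes, had the widest span of the 9. It read 6.58 and 7.01 on the vehicle arrays, 7.41 and 7.42 on those of day 5, 9.45 and 9.37 on those of day 18, and 9.19 and 9.03 on those of day 32. The arrays of every tamoxifen group lay above both vehicle arrays. The change from vehicle was 0.62 ± 0.126 at day 5 (SE, adjusted p = 0.00942), 2.61 ± 0.126 by day 18 (adjusted p = 1.09e-06) and 2.32 ± 0.126 by day 32 (adjusted p = 1.55e-06), or 1.54-fold, 6.12-fold and 4.98-fold. The rise at day 5 missed the threshold without day 5 replicate 1 (adjusted p = 0.0538) and without day 5 replicate 2 (adjusted p = 0.0578). Between day 32 and day 18 the change was -0.30 ± 0.126 (adjusted p = 0.244).

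Peg3, a paternally expressed zinc-finger gene known for effects on growth and maternal behaviour, moved later. It read 5.01 and 4.96 on the vehicle arrays, 4.88 and 4.69 on those of day 5, 5.90 and 6.05 on those of day 18, and 6.80 and 5.97 on those of day 32. Both day 5 arrays lay below both vehicle arrays, with a change of -0.20 ± 0.211 (adjusted p = 0.599). Peg3 had risen by 0.99 ± 0.211 on day 18 (adjusted p = 0.00715), then by 1.41 ± 0.211 over vehicle on day 32 (adjusted p = 0.00068). The day 32 arrays differed from each other by more than those of any other time course group of this gene, and 1 of them lay within the range of day 18. Day 32 against day 18 gave 0.41 ± 0.211 (adjusted p = 0.337), which became 0.83 without day 32 replicate 2.

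Phlda2, a small pleckstrin-homology protein known to limit placental growth and expressed from the maternal copy, showed the same timing. It read 4.33 and 4.08 on the vehicle arrays, 4.27 and 4.07 on those of day 5, 5.23 and 5.44 on those of day 18, and 5.52 and 5.65 on those of day 32. Vehicle and day 5 overlapped, and both later groups lay clear of them. Phlda2 had risen by 1.13 ± 0.115 on day 18 (adjusted p = 8.96e-05) and by 1.38 ± 0.115 on day 32 (adjusted p = 1.79e-05), or 2.2-fold and 2.61-fold.

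Grb10, an adaptor that binds the insulin and IGF1 receptors and dampens their signal, was the member that fell furthest. It read 4.99 and 5.29 on the vehicle arrays, 4.83 and 4.83 on those of day 5, 4.18 and 3.95 on those of day 18, and 4.13 and 4.07 on those of day 32. Both day 5 arrays were already below both vehicle arrays, at a change of -0.31 ± 0.113 that did not pass the threshold (adjusted p = 0.0939). With each array set to its own median the day 5 value was -0.40 (adjusted p = 0.0345), and with quantile normalization -0.39 (adjusted p = 0.0352). Without vehicle replicate 1 it was -0.47. Grb10 fell by 1.08 ± 0.113 on the log2 scale by day 18 (adjusted p = 0.000109) and by 1.04 ± 0.113 by day 32 (adjusted p = 9.26e-05), which left it 2.11-fold and 2.05-fold below vehicle.

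Most of this change fell between day 5 and day 18. Day 18 against day 5, Plagl1 rose by 2.00 ± 0.126 (adjusted p = 3.4e-06), Peg3 by 1.19 ± 0.211 (adjusted p = 0.00197) and Phlda2 by 1.16 ± 0.115 (adjusted p = 5.08e-05). Grb10 fell by 0.76 ± 0.113 (adjusted p = 0.000657) and Dlk1 by 0.26 ± 0.0836 (adjusted p = 0.0398). These 3 higher and 2 lower members stood beside 15.6% and 16.1% of all genes. Day 32 against day 18 called 0 of 9 members with limma (1 at an unadjusted p under 0.05, Plagl1), beside 4.15% of all genes called and 18.8% at that unadjusted p.

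Dlk1 and Meg3 are neighbours in 1 imprinted domain. Dlk1, an EGF-repeat membrane protein of the Notch ligand kind that keeps preadipocytes undifferentiated, read 11.46 and 11.50 on the vehicle arrays, 11.90 and 11.80 on those of day 5, 11.68 and 11.50 on those of day 18, and 11.61 and 11.64 on those of day 32. It stood highest at day 5, by 0.37 ± 0.0836 over vehicle (adjusted p = 0.0148), and the changes at day 18 (0.11) and day 32 (0.15) did not pass. The day 5 rise missed the threshold without vehicle replicate 1 (adjusted p = 0.0718) or day 5 replicate 1 (adjusted p = 0.0979), and the fall between day 5 and day 18 was lost with only those 2 groups fitted and in 5 of 8 fits that left out 1 array. Meg3, a maternally expressed long noncoding RNA, read 4.18 and 4.27 on the vehicle arrays, 4.07 and 4.31 on those of day 5, 3.96 and 4.10 on those of day 18, and 3.80 and 3.94 on those of day 32. Only its day 32 value was called, with a Meg3 change of -0.36 ± 0.1 (adjusted p = 0.0212). That call was lost without vehicle replicate 2 (adjusted p = 0.0977) or day 32 replicate 1 (adjusted p = 0.139).

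Mest, a hydrolase-fold protein expressed from the paternal copy, read 3.86 and 3.97 on the vehicle arrays, 3.72 and 3.57 on those of day 5, 3.43 and 3.72 on those of day 18, and 3.68 and 3.65 on those of day 32. All 6 tamoxifen arrays lay below both vehicle arrays, with changes of -0.27 on day 5 (adjusted p = 0.117), -0.34 ± 0.103 on day 18 (adjusted p = 0.0378) and -0.25 on day 32 (adjusted p = 0.0981). Only the day 18 value passed, and it missed the threshold with quantile normalization (adjusted p = 0.0663), with only the 2 groups fitted (adjusted p = 0.0768) and in 5 of 8 fits that left out 1 array. With each array set to its own median all 3 passed, at -0.35 (adjusted p = 0.0407), -0.43 (adjusted p = 0.0119) and -0.31 (adjusted p = 0.0386). That setting lowered the median change of all genes as well, to -0.09, -0.11 and -0.08. Leaving out vehicle replicate 1, vehicle replicate 2, day 18 replicate 1 or either day 32 array gave adjusted p = 0.0688, 0.146, 0.248, 0.0569 and 0.0569.

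Cdkn1c, the maternally expressed inhibitor of cyclin-dependent kinases called p57, read 4.54 and 4.65 on the vehicle arrays, 4.49 and 4.61 on those of day 5, 4.38 and 4.42 on those of day 18, and 4.45 and 4.20 on those of day 32. Its day 32 change was -0.27 ± 0.0974 (adjusted p = 0.0628). That change passed with each array set to its own median (adjusted p = 0.027), with quantile normalization (adjusted p = 0.0467) and without the lowest 30% of genes (adjusted p = 0.0443). Ndn, a MAGE-family protein known from neurons as a growth suppressor, read 2.86 and 2.90 on the vehicle arrays, 2.73 and 2.95 on those of day 5, 2.95 and 2.64 on those of day 18, and 2.77 and 2.87 on those of day 32. Its groups overlapped throughout, and its changes from vehicle lay between -0.08 and -0.04 with an SE of 0.113.

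The rescue experiment asked which changes followed the loss of Ezh2 in a separate set of cells and what Ezh1 or Ezh2 supplied from outside did to them. Plagl1 was the 1 member that passed in Ezh2 null cells against control cells, 2.73 ± 0.363 higher (SE, adjusted p = 0.0137), a 6.62-fold rise. That made 1 of 9 members higher and 0 lower, beside 1.2% and 0.755% of all genes. Among all genes 225 rose and 142 fell, and with each array set to its own median 184 rose and 217 fell. At an unadjusted p under 0.05, 3 of 9 members passed (Plagl1, Phlda2 and Grb10), beside 15.5% of all genes. The rescue fit held the replicate number as a block, because the study's methods give a batch difference between first and second replicates.

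Plagl1 read 10.64 and 9.83 on the Ezh2 null arrays, 8.92 and 9.15 with Ezh1 pre-rescue, 8.36 and 8.82 with Ezh2 pre-rescue, 9.28 and 8.75 with Ezh2 post-rescue, and 7.08 and 7.93 on the control arrays. Both null arrays were the highest and both control arrays the lowest of the 10, with all 6 rescue arrays between them. Against control cells the change was 1.53 ± 0.363 in Ezh1 pre-rescue (adjusted p = 0.272), 1.09 ± 0.363 in Ezh2 pre-rescue (adjusted p = 0.378) and 1.51 ± 0.363 in Ezh2 post-rescue (adjusted p = 0.16). Without control replicate 2 the Ezh1 pre-rescue value was 2.04. Against Ezh2 null cells it was -1.20 in Ezh1 pre-rescue (adjusted p = 0.118), -1.64 in Ezh2 pre-rescue (adjusted p = 0.0394) and -1.22 in Ezh2 post-rescue (adjusted p = 0.19). Only Ezh2 pre-rescue was thus called below null, and 7 of 10 fits that left out 1 array lost that call. The value without Ezh2 null replicate 1 was -1.11 (adjusted p = 0.119), and those without an array of any rescue group had adjusted p from 0.0645 to 0.217. The rise in null cells passed in each of 10 fits that left out 1 array and missed the threshold when only the 2 groups were fitted (adjusted p = 0.303).

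Phlda2 read 5.18 and 6.56 on the Ezh2 null arrays, 4.67 and 4.42 with Ezh1 pre-rescue, 4.55 and 4.28 with Ezh2 pre-rescue, 4.73 and 4.67 with Ezh2 post-rescue, and 4.59 and 4.43 on the control arrays. Both null arrays lay above the other 8, and they differed from each other by more than the 2 arrays of any other group. Null against control gave 1.36 ± 0.368, which did not pass (adjusted p = 0.128), and without Ezh2 null replicate 1 it gave 2.15. On the same null arrays Igf2 also differed, at 8.57 and 6.47, with no test of a link made. Against null, Phlda2 changed by -1.33 in Ezh1 pre-rescue (adjusted p = 0.0973), -1.46 in Ezh2 pre-rescue (adjusted p = 0.0559) and -1.17 in Ezh2 post-rescue (adjusted p = 0.21). The Ezh2 pre-rescue value passed without the replicate block (adjusted p = 0.037) and without either control array (adjusted p = 0.0488). Without Ezh2 null replicate 1 the 3 changes were -2.11, -2.24 and -1.96. Without Ezh2 null replicate 2 the Ezh2 pre-rescue value was -0.67. Such fits keep 1 null array and hold no spread between null arrays.

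Peg3 was high in another group than in the time course. It read 5.62 and 5.48 on the Ezh2 null arrays, 5.33 and 5.70 with Ezh1 pre-rescue, 5.36 and 5.64 with Ezh2 pre-rescue, 6.82 and 6.28 with Ezh2 post-rescue, and 5.31 and 5.49 on the control arrays. Null and control arrays overlapped, with a change of 0.15 ± 0.203 (adjusted p = 0.791). Both post-rescue arrays lay above the other 8. Post-rescue against control gave 1.15 ± 0.203 (adjusted p = 0.063), which did not pass in the fit with the block and passed without it (adjusted p = 0.0296). Without Ezh2 post-rescue replicate 2 it gave 1.5. Post-rescue against null gave 1.00 ± 0.203 (adjusted p = 0.0854), and 1.00 without the block (adjusted p = 0.0474).

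Grb10 read 5.91 and 5.98 on the Ezh2 null arrays, 6.27 and 6.31 with Ezh1 pre-rescue, 6.20 and 6.43 with Ezh2 pre-rescue, 6.49 and 6.39 with Ezh2 post-rescue, and 6.25 and 6.42 on the control arrays. Both null arrays were the lowest of the 10, and the rescue groups overlapped the control arrays. Null against control gave -0.39 ± 0.0957 (adjusted p = 0.101), which did not pass. Against null the changes were 0.34 in Ezh1 pre-rescue (adjusted p = 0.0999), 0.37 in Ezh2 pre-rescue (adjusted p = 0.0585) and 0.49 in Ezh2 post-rescue (adjusted p = 0.0783). The Ezh2 pre-rescue value passed without the block (adjusted p = 0.0464), without either control array (adjusted p = 0.0418) and with each array set to its own median (0.45, adjusted p = 0.0407).

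**Figure D2:**
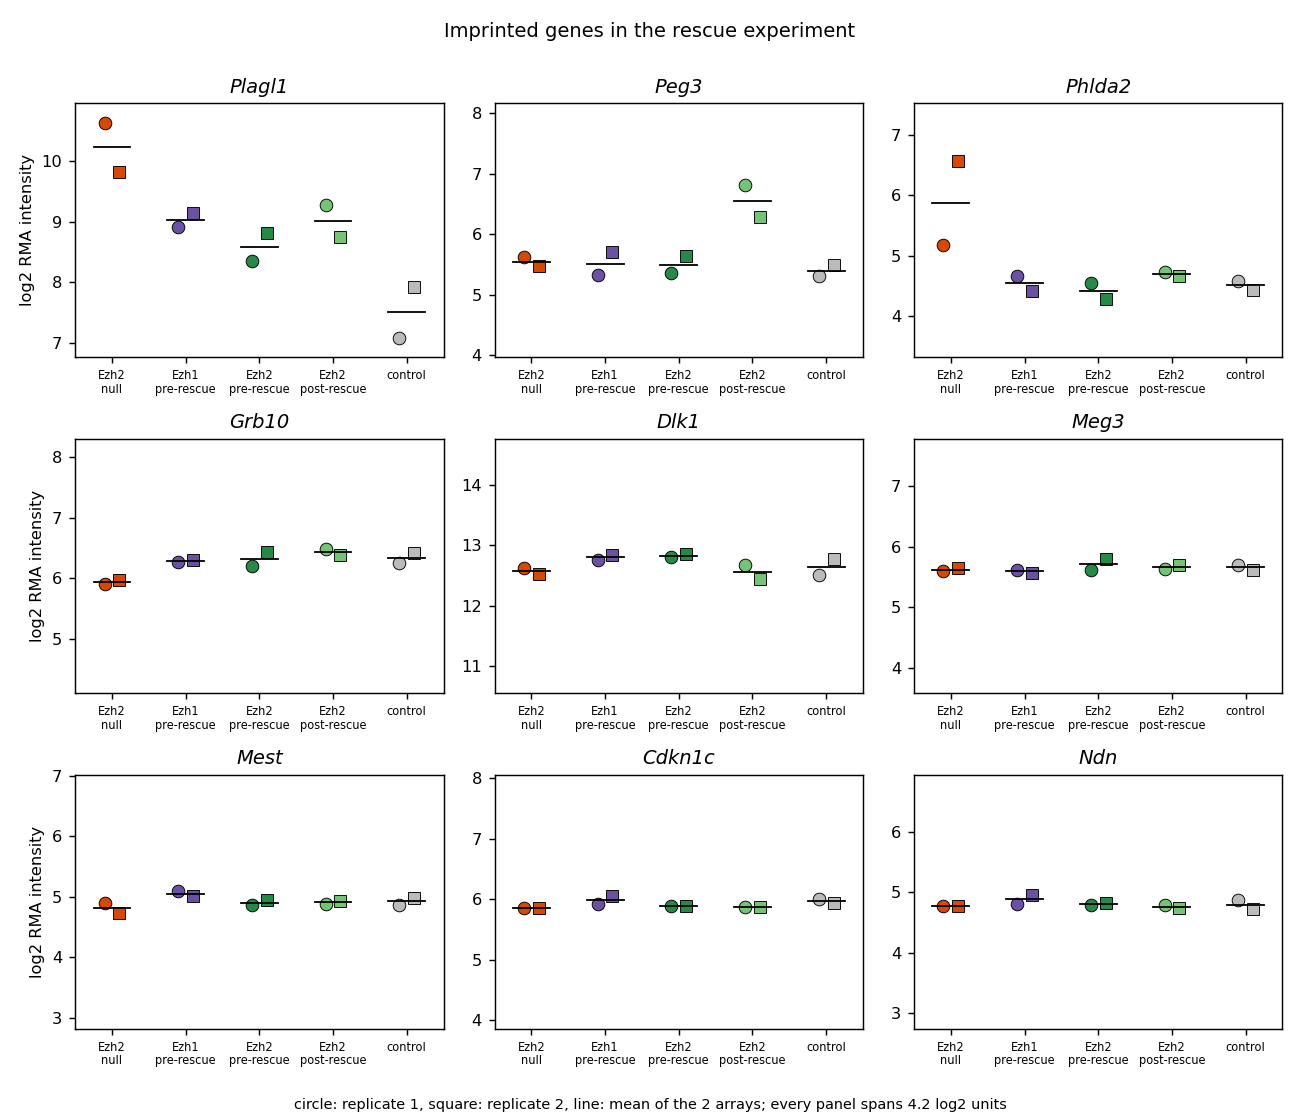
Log2 RMA intensity (vertical axis) of the 9 measured imprinted genes in Ezh2 null, Ezh1 pre-rescue, Ezh2 pre-rescue, Ezh2 post-rescue and control cells (horizontal axis). Each point is 1 array and each line the mean of 2 arrays, with every panel spanning the same height. Plagl1 was highest in Ezh2 null and lowest in control cells, Phlda2 was highest in Ezh2 null cells, and Peg3 was highest in Ezh2 post-rescue.

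The remaining 5 members spanned 0.11 (Meg3) to 0.26 (Dlk1) log2 units over the means of the rescue groups. Dlk1 read between 12.45 and 12.86 on the 10 arrays, Meg3 between 5.56 and 5.79, Mest between 4.74 and 5.09, Cdkn1c between 5.86 and 6.05 and Ndn between 4.72 and 4.96. None of these 5 was called in any of the 8 comparisons within the rescue experiment. Against control, limma called 0 of 9 members in Ezh1 pre-rescue (1 at an unadjusted p under 0.05), 0 in Ezh2 pre-rescue (1) and 0 in Ezh2 post-rescue (2), beside 0.0106%, 0% and 0.707% of all genes called. At the unadjusted p these shares of all genes were 9.76%, 10.2% and 9.51%. Against null it called 0 in Ezh1 pre-rescue (4 at an unadjusted p under 0.05) and 0 in Ezh2 post-rescue (4), beside 2.3% and 0.6% of all genes called, and 20.1% and 13.8% at the unadjusted p. In Ezh2 pre-rescue against null 0 of 9 rose and 1 fell, beside 3.15% and 4% of all genes. Fitting only the 2 groups compared, Plagl1 passed against control in Ezh1 pre-rescue (adjusted p = 0.0322) and Ezh2 pre-rescue (adjusted p = 0.0228), and Peg3 passed in Ezh2 post-rescue (adjusted p = 0.0253).

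Ezh1 and Ezh2 supplied before the deletion were compared directly. Ezh1 pre-rescue against Ezh2 pre-rescue called 0 of 9 members with limma (0 at an unadjusted p under 0.05), beside 0.00531% of all genes called and 1.12% at that unadjusted p, with changes from -0.11 (Meg3) to 0.44 ± 0.363 (Plagl1). Ezh1 itself read 2.02 ± 0.157 higher in Ezh1 pre-rescue than in Ezh2 pre-rescue (adjusted p = 0.0363). The missed threshold does not show that both act alike on Plagl1.

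The effect of losing Ezh2 was then set against that of day 32 in 1 fit of all 18 arrays. The SD over probe sets was 2.64 to 2.7 on time course arrays and 2.29 to 2.38 on rescue arrays, and changes were not rescaled. Ezh1 fell by 0.99 ± 0.0767 at day 32 (adjusted p = 1.21e-05), with -0.31 ± 0.157 in null cells (adjusted p = 0.398). That difference was 0.67 ± 0.182 (adjusted p = 0.0384), and its bearing on the members was not tested. Peg3 was 1.41 ± 0.211 higher at day 32 and 0.15 ± 0.203 in Ezh2 null cells, a difference of -1.26 ± 0.329 (adjusted p = 0.0333). Grb10 was lower by 1.04 at day 32, with a change of -0.39 in null cells, a difference of 0.65 ± 0.157 (adjusted p = 0.0231). For Plagl1 (0.41 ± 0.417, adjusted p = 0.668) and Phlda2 (-0.02 ± 0.418, adjusted p = 0.99) the difference did not pass. The Phlda2 value was 0.76 without Ezh2 null replicate 1 and -0.80 without Ezh2 null replicate 2, so its sign rested on which of the 2 null arrays was kept. In all, 1 of 9 members was higher and 1 lower, beside 2.48% and 5.64% of all genes. The Grb10 call was lost in 5 of 18 fits that left out 1 array (vehicle replicate 2, either day 32 array, control replicate 1 or Ezh2 null replicate 1, adjusted p from 0.0618 to 0.0833). The Peg3 call was lost in 7 of 18 (either vehicle array, day 32 replicate 1, either control array or either Ezh2 null array, adjusted p from 0.0523 to 0.118), with values from -1.67 to -0.85.

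**Figure D3:**
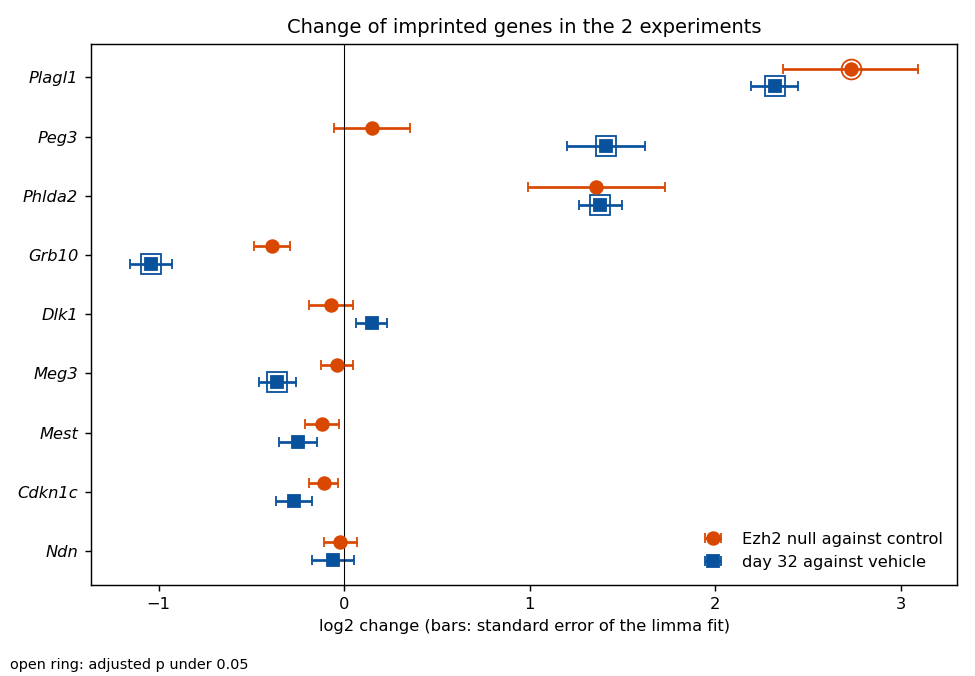
Log2 change (horizontal axis) of the 9 imprinted genes in Ezh2 null cells against control cells (circles) and at day 32 against vehicle (squares), with bars for the standard error of the limma fit and rings at an adjusted p under 0.05. Plagl1 was ringed in both, while Peg3 (0.15 and 1.41) and Grb10 (-0.39 and -1.04) lay apart.

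The calls were also counted by parental class. At day 5, 2 of 5 paternally expressed members had risen and 0 of 4 maternally expressed ones had moved past the threshold (median -0.04 in both), beside 11% of all genes higher and 5.72% lower. At day 18 the counts were 2 higher and 1 lower of 5 paternally expressed members (median 0.11) and 1 higher and 1 lower of 4 maternally expressed ones (median -0.2), beside 15.2% and 10.5%. At day 32 they were 2 higher and 0 lower of 5 (median 0.15) and 1 higher and 2 lower of 4 (median -0.31), beside 18.4% and 14.2%. In Ezh2 null cells the 1 called member was paternally expressed. No test of this split was made.

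Members were also read beside the genes next to them in their imprinted domains. In the Grb10 domain, Ddc, the aromatic amino acid decarboxylase gene adjoining Grb10, fell by 1.00 ± 0.0955 on day 18 (adjusted p = 6.34e-05) and by 1.04 ± 0.0955 on day 32 (adjusted p = 3.3e-05), while Cobl, an actin nucleator, rose by 0.31 at day 32 (adjusted p = 0.039). In the Plagl1 domain, Phactr2, a phosphatase and actin regulator, rose by 0.99 ± 0.126 on day 18 (adjusted p = 0.000369) and changed by 0.03 on day 32 (adjusted p = 0.886). Ltv1, a ribosome biogenesis factor there, rose by 0.40 on day 18 (adjusted p = 0.0394) and by 0.47 on day 32 (adjusted p = 0.0139). Of the 11 genes measured in the Kcnq1ot1 domain, Phlda2 and Tssc4 (0.48, adjusted p = 0.00415) rose at day 32 and Osbpl5 (-0.53, adjusted p = 0.00047) and Cd81 (-0.38, adjusted p = 0.0049) fell, and Cdkn1c was among those not called, beside 18.4% of all genes higher and 14.2% lower. Peg3 was the 1 of 3 called in its domain at day 18 and at day 32, beside 15.2% and 18.4% of all genes higher. In the Ndn domain Peg12 rose by 0.56 ± 0.099 at day 32 (adjusted p = 0.00187), and in the Mest domain Copg2 fell by 0.46 ± 0.071 (adjusted p = 0.000758). In Ezh2 null cells against control, Plagl1 was the 1 gene called over these 8 domains, beside 1.2% of all genes higher and 0.755% lower.

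**Figure D4:**
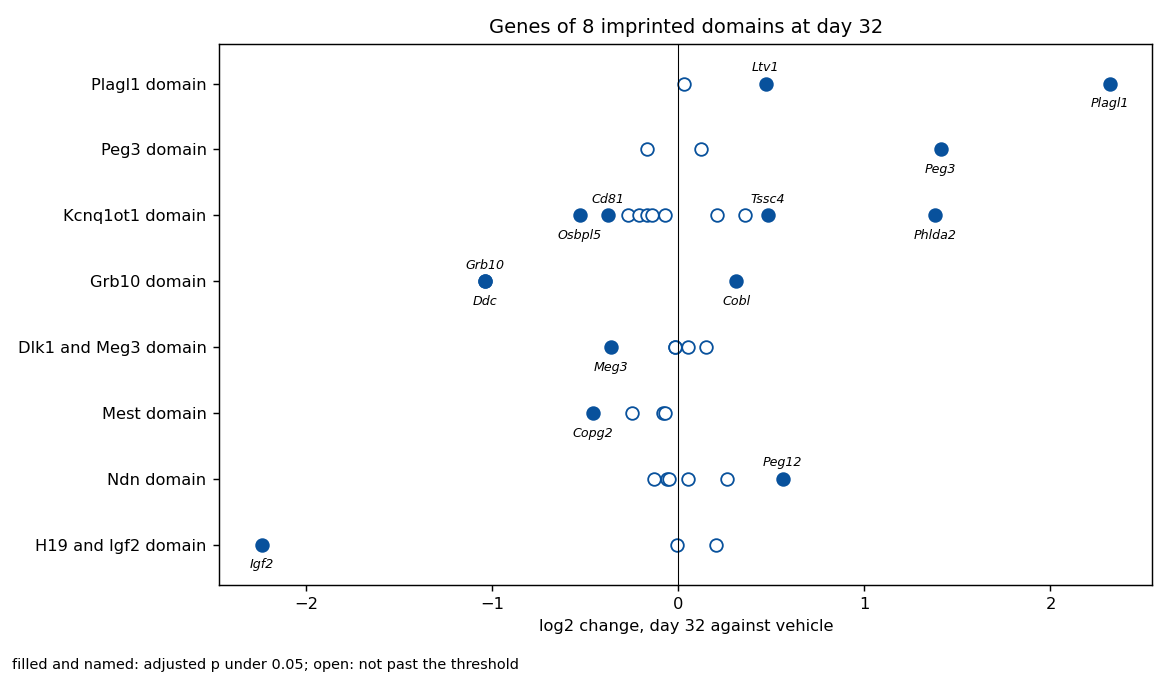
Log2 change at day 32 against vehicle (horizontal axis) of the genes measured in 8 imprinted domains (rows), with 1 point per gene. Filled and named points had an adjusted p under 0.05. Plagl1 (2.32), Peg3 (1.41) and Phlda2 (1.38) lay furthest above 0, and Igf2 (-2.24), Grb10 (-1.04) and Ddc (-1.04) furthest below.

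Outside the 10 genes, 56 other imprinted genes were measured, Igf2 and Igf2r among them. Of these, 5 rose and 5 fell at day 5 (11% and 5.72% of all genes), 7 rose and 13 fell at day 18 (15.2% and 10.5% of all genes) and again at day 32 (18.4% and 14.2%), and 1 rose in Ezh2 null cells (1.2%). That last gene was Pon2, a paraoxonase, up by 0.89 ± 0.126 (adjusted p = 0.0178). Pon2 also rose by 1.49 ± 0.0751 on day 18 (adjusted p = 1.36e-06) and by 1.45 ± 0.0751 on day 32 (adjusted p = 1.11e-06). Ampd3, an AMP deaminase, rose by 1.08 at day 5, 1.23 at day 18 and 0.96 at day 32, and the homeobox gene Dlx5 by 1.74 ± 0.165 at day 18 (adjusted p = 6.19e-05). At day 5, Gab1, an adaptor of growth factor receptors, rose by 0.40 (adjusted p = 0.00464), while Peg10, derived from a retrotransposon, fell by 0.74 ± 0.0772 (adjusted p = 0.000282) and Atp10a by 0.46 (adjusted p = 0.00495).

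Igf2, the growth factor whose pathway several members meet, read 8.12 and 8.39 on the vehicle arrays, 8.55 and 8.78 on those of day 5, 7.66 and 7.60 on those of day 18, and 6.0 and 6.02 on those of day 32. Igf2 rose by 0.41 ± 0.107 on day 5 (adjusted p = 0.0275), a call lost with each array set to its own median (adjusted p = 0.058), with only the 2 groups fitted (adjusted p = 0.0673), without vehicle replicate 1 (adjusted p = 0.16) and without day 5 replicate 2 (adjusted p = 0.175). It then fell below vehicle by 0.63 ± 0.107 on day 18 (adjusted p = 0.0022) and by 2.24 ± 0.107 on day 32 (adjusted p = 7.01e-07). In Ezh2 null cells its change of -0.39 ± 0.616 did not pass (adjusted p = 0.827). A probe set that carried the symbols Igf2os and Igf2 together was not used, and which transcript it reads is not known. It read 5.93 and 6.13 on the vehicle arrays, 5.94 and 5.97 on those of day 5, 6.26 and 6.12 on those of day 18, and 6.20 and 6.25 on those of day 32. Igf2r, which clears that ligand, fell by 0.77 ± 0.0916 at day 32 (adjusted p = 0.000159). Over 15 measured genes of the IGF pathway, 4 rose and 0 fell at day 5, 4 rose and 4 fell at day 18, 5 rose and 6 fell at day 32, and 4 rose and 1 fell in Ezh2 null cells. Of all genes 11% were higher and 5.72% lower on day 5, 15.2% higher and 10.5% lower on day 18, 18.4% higher and 14.2% lower on day 32, and 1.2% higher and 0.755% lower in null cells. Irs1, the insulin receptor substrate that signals from the receptors Grb10 binds, fell by 1.53 ± 0.0885 at day 32 (adjusted p = 2.18e-06) and by 0.84 ± 0.147 in Ezh2 null cells (adjusted p = 0.0371). Igf1, the ligand of the IGF1 receptor, rose by 2.23 at day 32 and 2.94 in null cells. Igf2bp3, an RNA-binding protein that binds Igf2 mRNA, rose by 4.54 ± 0.118 at day 32 (adjusted p = 1.95e-08) and 3.39 ± 0.285 in null cells (adjusted p = 0.00279).

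Relatives of the members were read from lists of their families. Plag1, a growth-promoting zinc-finger relative of Plagl1, rose by 4.94 ± 0.0975 on day 18 (adjusted p = 7.64e-09) and equally on day 32 (adjusted p = 9.03e-09), and by 4.33 ± 0.254 in Ezh2 null cells (adjusted p = 0.00113). Plagl2 rose by 0.49 ± 0.0761 at day 32 (adjusted p = 0.000796), with 0.18 in null cells (adjusted p = 0.663). Of the 4 relatives of Grb10 and Phlda2, 0 rose and 3 fell at day 32, beside 18.4% and 14.2% of all genes. Grb14 fell by 1.04 ± 0.0796 (adjusted p = 1.08e-05), as an adaptor of the Grb10 kind, and Phlda1 fell by 1.12 ± 0.141 (adjusted p = 0.000223), opposite to Phlda2. Among 6 other inhibitors of cyclin-dependent kinases, Cdkn1a (p21) rose by 1.10 ± 0.0747 at day 32 (adjusted p = 5.65e-06) and 1.15 ± 0.175 in null cells (adjusted p = 0.0213), and Cdkn2b fell by 1.39 ± 0.0713 at day 32 (adjusted p = 1.06e-06). Of the 26 genes that maintain imprints or DNA methylation, 10 rose and 2 fell at day 32, beside 18.4% and 14.2% of all genes, with Dnmt1, the maintenance methyltransferase, up by 0.92 ± 0.0743 (adjusted p = 1.48e-05), and its partner Uhrf1 by 1.01. In null cells 1 of the 26 rose (1.2% of all genes), the methyltransferase Dnmt3b, by 0.58 ± 0.0803 (adjusted p = 0.0164).

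For the 4 members that spanned at least 1 log2 unit, the genes with the most similar pattern were found by Pearson's r over the 18 arrays after the mean of each experiment was subtracted, among 643 to 644 genes whose values then had an SD of at least 0.5. Plagl1 was most like Zfp618 (r = 0.956), Man1a (0.952) and Msi1 (0.95). Phlda2 was most like Dusp9 (0.974), Reep1 (0.964) and Kirrel3 (0.952). Grb10 was most like Fli1 (0.972), Cmtm5 (0.941) and Cnmd (0.937). Peg3 was most like 2 homeobox genes, Hoxb5 (0.892) and Hoxb6 (0.889), and Tfap2b (0.881). These values are descriptions of arrays that share 9 groups.

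Mir675, the microRNA gene whose hairpin lies inside H19, had a probe set of its own, and its values were chosen after they were seen. They are given for Mir675 and not for H19. The 2 mature forms in RefSeq are shown with the seed (bases 2 to 8) in capitals, since they name the product of that hairpin, and the array gives no value per form.
mmu-miR-675-5p, chr7:142577112-142577133, - strand: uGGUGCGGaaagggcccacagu
mmu-miR-675-3p, chr7:142577078-142577099, - strand: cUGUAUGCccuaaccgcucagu
The Mir675 probe set read 5.41 and 5.77 on the vehicle arrays, 5.10 and 5.14 on those of day 5, 6.99 and 6.83 on those of day 18, and 6.65 and 6.85 on those of day 32. Mir675 fell by 0.47 ± 0.123 on day 5 (adjusted p = 0.0289), then rose above vehicle by 1.32 ± 0.123 on day 18 (adjusted p = 5.58e-05) and by 1.16 ± 0.123 on day 32 (adjusted p = 8.07e-05). In the rescue experiment it read 7.66 and 6.86 on the Ezh2 null arrays, 7.66 and 7.56 with Ezh1 pre-rescue, 7.20 and 7.61 with Ezh2 pre-rescue, 7.86 and 7.27 with Ezh2 post-rescue, and 6.19 and 7.18 on the control arrays. Null and control overlapped (0.58 ± 0.381, adjusted p = 0.532).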

How the data were processed

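RNA of clone C2 was hybridised to 18 Affymetrix Mouse Gene arrays. The authors ran RMA (R package oligo) on the raw arrays, and the deposited log2 intensities are its output. Their methods add a limma correction of a batch between first and second replicates in the rescue experiment, which the labels neither claim nor deny for the deposited table. The SD over genes of the mean difference between replicates was 0.0629, against 0.0879 for independent differences. The genome build of the arrays is not given in the sources used here.

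Of 28440 probe sets, 21217 carried 1 gene symbol, 1881 several and 5342 none, and 21184 matched a RefSeq gene by identifier. Only single-symbol probe sets were used. Where a gene had more than 1, as 1386 genes did, the highest mean over the arrays was kept, which left 18820 genes. Each gene was fitted with 1 mean per group in limma 3.58.1 under R 4.3.3 (lmFit, eBayes), two-sided, and p-values were adjusted over all genes by the method of Benjamini and Hochberg. The time course (4 residual and 5.27 prior degrees of freedom) had no block, the rescue experiment (4 and 3.62) had the replicate number as a block, and the fit of all 18 arrays (8 and 4.89) had it within the rescue experiment. The study's own test, RankProduct, was not used. The script was tested on simulated data.

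Replicate numbers were checked for pairing by the correlation, over genes, of replicate differences between groups. It lay between -0.07 and 0.05 over 6 pairs of groups in the time course and between -0.43 and 0.54 over 10 pairs in the rescue experiment, of which 6 were negative. These correlations showed no common pairing, with only 1 of the 10 over 0.1. They cannot tell an absent batch from values already corrected for it. If the deposited values were corrected, fits without the block count too many degrees of freedom. The block in the rescue experiment was kept because the methods state a batch.

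The members, lists, tests and alternatives were chosen with earlier results of these data known. All 9 measured members are named. Of the other imprinted genes, up to 4 with the smallest adjusted p were named in each comparison with vehicle or control. Genes named from the other lists and from the domains were chosen after their values were seen. Lists are given as counts and medians, with no set test. Alternatives were each array set to its median, quantile normalization, a filter on the lowest 30% of genes, the mean of a gene's probe sets, a prior with trend and robust, only the 2 groups compared, the block, and leaving out each array. Promoter and microRNA sequences are RefSeq's on GRCm38.p6.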

Additional observations from a re-analysis of the deposited data

Results flagged for a closer look

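Peg3 and Grb10 were singled out because their change on loss of Ezh2 in the rescue experiment differed from their change at day 32 of the time course, by a test of the difference itself in 1 limma fit of all 18 arrays. For Peg3 the change was 0.15 in Ezh2 null against control cells and 1.41 at day 32 against vehicle, a difference of -1.26 ± 0.329 (adjusted p = 0.0333), and the values were 5.62 and 5.48 in Ezh2 null cells, 5.31 and 5.49 in control cells, 6.80 and 5.97 at day 32 and 5.01 and 4.96 in vehicle cells. For Grb10 the change was -0.39 in Ezh2 null cells and -1.04 at day 32, a difference of 0.65 ± 0.157 (adjusted p = 0.0231), with both null arrays below both control arrays and both day 32 arrays below both vehicle arrays. Over the fits that left out 1 array the Peg3 difference lay between -1.67 and -0.85 and the Grb10 difference between 0.5 and 0.8. The time since deletion in the null cells is not in the labels, and its part in the difference was not tested. The SD over probe sets was 2.64 to 2.7 in the time course and 2.29 to 2.38 in the rescue experiment. Peg3 means of 5.55 in null and 5.4 in control cells lay within the 5.1 to 5.63 of the markers of other cell types. The part of scale or low signal in the difference was not tested either. With 2 arrays in each group no test for an outlying array was made.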

How the results depend on the processing

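At day 18 and day 32 Plagl1, Phlda2, Peg3 and Grb10 were called with the same sign under each of 7 alternatives, the replicate block among them, and each of 8 arrays left out. With the replicate block the time course called 2, 5 and 5 members at day 5, day 18 and day 32, as without it, so the block changed no call count there. Other settings moved counts of called members as follows. Setting each array to its median gave 4 members at day 5 (against 2), 7 at day 32 (against 5) and 2 in Ezh2 pre-rescue against null (against 1). Under it 1479 of all 18820 genes were higher and 2111 lower at day 5, beside 2077 and 1077 in the main fit. At day 32 these were 2910 and 3685, beside 3468 and 2679. In Ezh2 pre-rescue against null they were 887 and 503, beside 592 and 752. Quantile normalization gave 3 at day 5, 4 at day 18 (against 5), 6 at day 32 and 3 in Ezh2 pre-rescue against null. The filter on low values, which removed Mest, gave 4 at day 18 and 6 at day 32. The prior with trend and robust gave 0 in Ezh2 pre-rescue against null, and that prior gave 1 in Ezh2 post-rescue against control (against 0). Without the replicate block the counts were 3 in Ezh2 pre-rescue against null, 1 in Ezh2 post-rescue against null and 1 in Ezh2 post-rescue against control. With only the 2 groups fitted they were 4 at day 18 against vehicle and 4 at day 18 against day 5 (each against 5), 0 in Ezh2 null against control (against 1), 1 each in Ezh1 pre-rescue, Ezh2 pre-rescue and Ezh2 post-rescue against control, and 2 in Ezh2 post-rescue against null. The cause of the other shifts was not tested.

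Leaving out 1 array gave 0 to 2 called members at day 5, 4 to 5 at day 18, at day 32 and between day 18 and day 5, 0 to 1 between day 32 and day 18, 1 to 2 in Ezh2 null against control, 0 to 1 in Ezh1 pre-rescue against control, in Ezh2 post-rescue against control, in Ezh1 pre-rescue against null and in Ezh2 post-rescue against null, 0 to 3 in Ezh2 pre-rescue against null, and 0 to 2 for the difference between Ezh2 null and day 32. For Phlda2 the difference between Ezh2 null and day 32, -0.02, ran from -0.80 to 0.76 and reversed its sign. A group left with 1 array was assumed to vary like the others. The filter on low values removed Mest and Ndn, and in the rescue experiment also Phlda2. The split of all genes in Ezh1 pre-rescue against null was 162 higher and 271 lower, and became 235 and 179 with arrays set to their median and 368 and 286 with quantile normalization. In Ezh2 pre-rescue against null it was 592 and 752, and became 887 and 503, and 971 and 795. Quantile normalization gave 78 and 98, against 36 and 77, in Ezh2 post-rescue against null, and 754 and 831, against 467 and 1062, for the difference between Ezh2 null and day 32. Setting arrays to their median gave 83 and 51, against 96 and 37, in Ezh2 post-rescue against control.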

Other observations

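Other genes with ties to single members were also read, chosen after their values were seen. Of 12 genes of Notch signalling and the preadipocyte state, where Dlk1 acts, 4 rose and 1 fell at day 5, 1 rose and 4 fell at day 18, 3 rose and 5 fell at day 32, and 1 rose in Ezh2 null cells. Of all genes 11% rose and 5.72% fell at day 5, 15.2% and 10.5% at day 18, 18.4% and 14.2% at day 32, and 1.2% rose in null cells. At day 5 Pparg, the adipocyte nuclear receptor, rose by 1.31 ± 0.145 (adjusted p = 0.000384) and the Notch ligand gene Jag1 by 1.25 ± 0.0812 (adjusted p = 2.14e-05), while Dlk2, the relative of Dlk1, fell by 0.82 ± 0.109 (adjusted p = 0.00107), the opposite sign to Dlk1. Hey1, a Notch target, rose by 2.02 ± 0.26 at day 32 (adjusted p = 0.000263) and 0.85 ± 0.126 in Ezh2 null cells (adjusted p = 0.0194). Of 5 measured relatives of Ndn in the MAGE family, Maged2 fell by 0.69 ± 0.0844 at day 5 (adjusted p = 0.00068) and rose by 0.62 ± 0.0844 at day 18 (adjusted p = 0.000569), against vehicle in both. Mir335, the microRNA gene inside Mest, read 4.26 and 4.08 on the vehicle arrays, 4.19 and 4.12 on those of day 5, 4.18 and 4.03 on those of day 18, and 3.86 and 4.10 on those of day 32.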
